A study of Mus musculus with 6 samples.

Results

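*Gata3*, *Il4ra*, *Stat6* and *Ptgdr2*, 4 genes of the type 2 program of T cells, were examined for open chromatin in splenic Tregs with and without CREB. Their members are the accessible regions that overlap each gene or the 10 kb on either side of it. By this rule 55 of 100771 regions of the control list and 50 of 94499 regions of the knockout list belong to the 4 genes. Merged by overlap they are 57 of 104845 regions, 27 at *Gata3*, 14 at *Il4ra*, 13 at *Stat6* and 3 at *Ptgdr2*.

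Controls were *CREBfl/fl* mice, which carry floxed CREB alleles and no Cre, and the labels call them WT. Knockouts were *Foxp3creCREBfl/fl* mice, in which Cre from the Foxp3-IRES-Cre allele deletes the floxed CREB in cells that express Foxp3. Both groups carry the floxed alleles, are C57BL/6 and were 6 to 12 weeks old, and no treatment is named. The labels list 3 ATAC-seq libraries per group, while the methods speak of sequencing in duplicate, so the number of libraries behind each list is not settled. The lists used here hold 1 set of peaks per group, so the spread between mice could not be measured and no p-value is given. The cells are labelled as splenic Tregs, and the sort used for this assay is not stated in the sources used here. Each library pooled its cells, so fewer cells with an open region and less opening per cell cannot be told apart.

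GATA3 is the transcription factor that commits CD4 T cells to the Th2 fate, and Tregs in tissues also use it. Interleukin-4 and interleukin-13 bind receptors that contain the IL-4 receptor alpha chain, the product of *Il4ra*. Janus kinases on these receptors then phosphorylate STAT6, which enters the nucleus and activates *Gata3* and other genes. *Ptgdr2* encodes CRTH2, a receptor for prostaglandin D2 and a classical surface marker of Th2 cells. CREB binds the cyclic AMP response element, or CRE, whose full word is TGACGTCA and whose half-site is TGACG.

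The sequences just upstream of the start sites are shown first, because a region was called at the starts of 3 of the 4 genes and none at that of *Ptgdr2*. Each holds the 250 bases before the first base of a GENCODE vM21 transcript, read 5′ to 3′ on the strand of the gene from GRCm38. Capitals mark exact matches, on either strand, to the CRE half-site, the AP-1 words TGAGTCA or TGACTCA, the GATA words AGATAA or AGATAG or TGATAA or TGATAG, the RUNX word TGTGGT, the forkhead word TGTTTAC, or TTC and GAA separated by 4 bases (the spacing preferred by STAT6) or by 3 bases (the spacing of STAT5 and other STATs). *Gata3* has more than 2 annotated starts, and 2 that lie 11.4 kb apart are shown. The far one (Gata3-202) is on chr2:9890035-9890284, the near one (Gata3-201) on chr2:9878601-9878850, both on the reverse strand.
Gata3-202: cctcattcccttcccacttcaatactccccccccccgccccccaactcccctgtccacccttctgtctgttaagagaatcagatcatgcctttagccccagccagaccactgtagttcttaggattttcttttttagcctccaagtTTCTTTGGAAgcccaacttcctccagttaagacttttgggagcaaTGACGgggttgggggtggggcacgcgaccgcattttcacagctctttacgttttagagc
Gata3-201: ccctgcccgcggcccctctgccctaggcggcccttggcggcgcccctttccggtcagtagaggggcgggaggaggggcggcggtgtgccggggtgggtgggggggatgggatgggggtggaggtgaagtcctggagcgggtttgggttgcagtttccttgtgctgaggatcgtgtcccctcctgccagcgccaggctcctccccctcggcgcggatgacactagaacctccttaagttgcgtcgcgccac
Il4ra-201, chr7:125551870-125552119, forward strand: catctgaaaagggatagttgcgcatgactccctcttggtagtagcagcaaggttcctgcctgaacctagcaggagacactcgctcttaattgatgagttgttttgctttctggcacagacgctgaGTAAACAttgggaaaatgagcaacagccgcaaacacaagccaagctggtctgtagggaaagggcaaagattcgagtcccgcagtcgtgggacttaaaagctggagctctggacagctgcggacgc
Stat6-201, chr10:127642736-127642985, forward strand: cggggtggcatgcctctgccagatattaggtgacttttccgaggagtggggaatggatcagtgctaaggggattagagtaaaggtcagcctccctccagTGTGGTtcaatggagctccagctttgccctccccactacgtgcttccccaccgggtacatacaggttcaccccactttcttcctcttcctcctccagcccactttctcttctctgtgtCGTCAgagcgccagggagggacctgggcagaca
Ptgdr2-201, chr19:10936910-10937159, forward strand: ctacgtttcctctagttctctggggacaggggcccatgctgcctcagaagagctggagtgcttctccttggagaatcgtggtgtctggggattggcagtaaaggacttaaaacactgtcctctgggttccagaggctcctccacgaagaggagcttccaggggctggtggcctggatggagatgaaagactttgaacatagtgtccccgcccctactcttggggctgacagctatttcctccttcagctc
Upstream of the far *Gata3* start stand 1 word with the STAT6 spacing and 1 CRE half-site. The near *Gata3* start is CG-rich, with a GC content of 70.0% against a median of 52.4% in the 250 bases before 32851 RefSeq starts, and holds none of the words. The *Il4ra* sequence holds 1 forkhead word, and that of *Stat6* 1 RUNX word and 1 CRE half-site. That of *Ptgdr2* holds none. Among all 32851 such sequences, 17.8% hold the half-site, 5.85% the STAT6 spacing, 3.17% the forkhead word and 14.05% the RUNX word. These matches are descriptions of letters, not of binding.

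The lists as a whole differed in depth. The pileup, the number of fragments over the summit of a peak, was recovered from the deposited fold and p of each peak, and is given here as a count or as a level, its multiple of the background of the genome. That background was 8.44 in *CREBfl/fl* and 5.09 in *Foxp3creCREBfl/fl*, and the control list was 1.66 times as deep, provided both lists were made with the same handling of fragments, which the lists do not show. Across 82004 regions of both lists the log2 ratio of the 2 levels had a median of 0.15, which was subtracted from every ratio that follows. Each ratio has an exact binomial 95% interval that covers counting error only. *Creb1*, the targeted gene, had 16 and 13 regions, and its start region had pileups of 1065 and 757 (ratio 0.09, -0.05 to 0.22), which does not check the deletion because the sources used here do not name the deleted exon. A start region holds the annotated gene start or else lies within 1 kb of it. The Treg markers *Foxp3*, *Ctla4*, *Il2ra*, *Ikzf2* and *Nrp1* had a shared start region at all 5 genes. The median level was 56.5 in *CREBfl/fl* and 67.4 in *Foxp3creCREBfl/fl*. That of *Foxp3* lay within 1 kb of the annotated start and did not hold it. Relative to the median of all regions, the start ratio was below 0 for *Foxp3* (-0.09), *Il2ra* (-0.16) and *Nrp1* (-0.11), each with an interval that included 0. It was above 0 for *Ikzf2*, at 0.10 (-0.10 to 0.31), and for *Ctla4*, at 0.75 (0.52 to 0.98). Of the 143 shared regions in their windows 15 had intervals below (10.5%) and 6 above 0 (4.20%). Over all shared regions the shares were 7.88% and 5.47%. Intervals lay below 0 for 5 of 15 at *Foxp3* and 6 of 17 at *Ctla4*. At *Il2ra* it was 2 of 18, at *Ikzf2* 2 of 60 and at *Nrp1* 0 of 33. One *Ctla4* region, chr1:60882767-60883143, named after its value had been seen, stood at 684 fragments against 176, for a ratio of -1.38 (-1.63 to -1.14), the only one of the 143 that differed by at least 2-fold and 5 counting SDs. Shared start regions were also found for 2 of 4 B cell, 1 of 4 myeloid, 2 of 4 CD8 and NK cell and 0 of 6 mast cell, basophil and eosinophil markers, with median levels of at most 12.8 in both lists. The part of such cells in the results was not tested.

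Most regions of the 4 genes were open in both groups and at close levels. Of the 57 regions, 48 were shared. In the *CREBfl/fl* list 7 of 55 regions had no counterpart (12.7%, Wilson 95% interval 6.30 to 24.0), and over the whole list 16.4% had none. In the *Foxp3creCREBfl/fl* list it was 2 of 50 (4.00%, 1.10 to 13.5), against 6.61%. Of the 48 shared regions 1 had an interval below 0 (all shared regions 7.88%) and 4 had one above 0 (5.47%), while 43 included 0. None differed by at least 2-fold and 5 counting SDs, a threshold that 0.117% of all shared regions passed toward lower and 0.0829% toward higher levels in *Foxp3creCREBfl/fl*. Ratios were below 0 in 32 and above 0 in 16, with a median of -0.09 and a range from -0.44 to 1.06. Without the subtraction 15 were below and 33 above, with a median of 0.06. Peaks covered 11.6% of the 4 windows in *CREBfl/fl* and 10.3% in *Foxp3creCREBfl/fl*. These shares are not corrected for the greater depth of the control list. Coverage over the whole lists was not computed, so the difference cannot be read as a trait of the 4 genes.

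**Figure D1:**
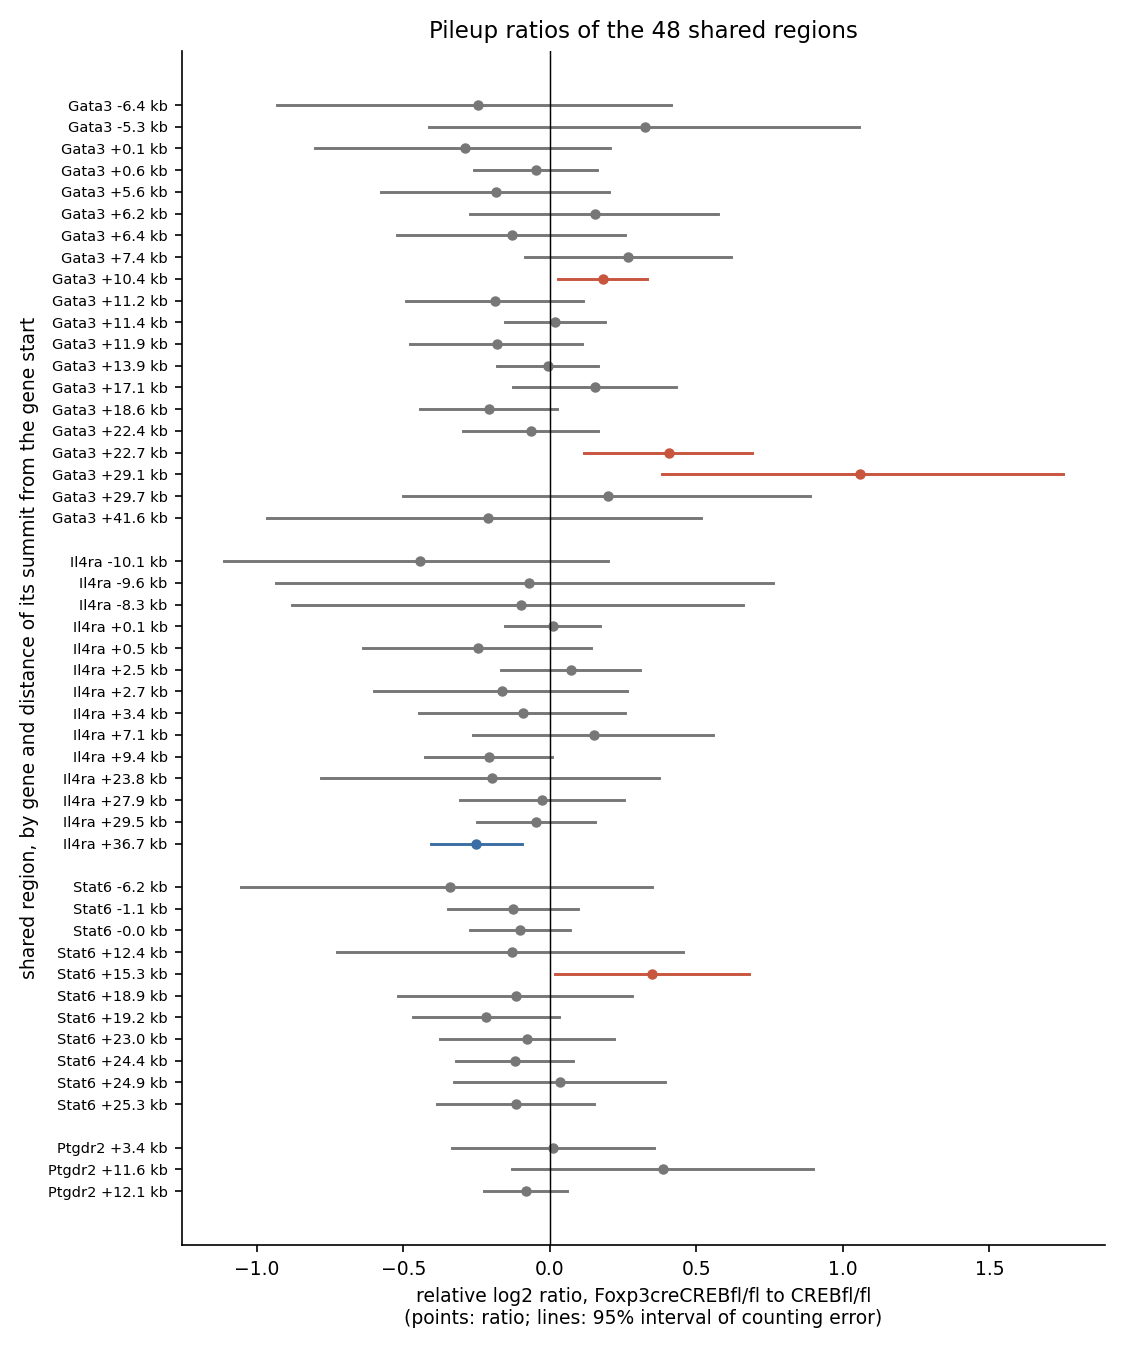
Relative log2 ratio of *Foxp3creCREBfl/fl* to *CREBfl/fl* (horizontal axis) for each of the 48 shared regions, ordered by gene and by the distance of the summit from the gene start (vertical axis). Lines are 95% intervals of counting error; 4 in red lie above 0, 1 in blue lies below 0 and 43 in grey include 0.

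*Gata3* held the most regions of the 4 genes, in number and per kb. It runs along the reverse strand of chromosome 2, from 9857078 to 9890034 (ENSMUSG00000015619.10), and its window of 53.0 kb held 25 regions in *CREBfl/fl* and 22 in *Foxp3creCREBfl/fl*. That is 4.72 regions per 10 kb in *CREBfl/fl*. Of 11477 protein-coding genes with at least 3 shared regions 0.575% were as dense. The peak caller's own estimate of the coverage around a peak, its local background, reached 14.7 times the genome background in *CREBfl/fl* and 16.3 times in *Foxp3creCREBfl/fl*. In *CREBfl/fl* 196 of 16489 genes, or 1.19%, had one as high, and the median gene reached 4.20 times. Of the 20 shared regions 11 had ratios below 0 and 9 above, with a median of -0.03. Without the subtraction it was 7 and 13, with a median of 0.12. The window also overlaps Gm13256, 4930412O13Rik and 9230102O04Rik, annotated genes whose roles are not described here, and no region can be assigned to one of these rather than to *Gata3*.

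**Figure D2:**
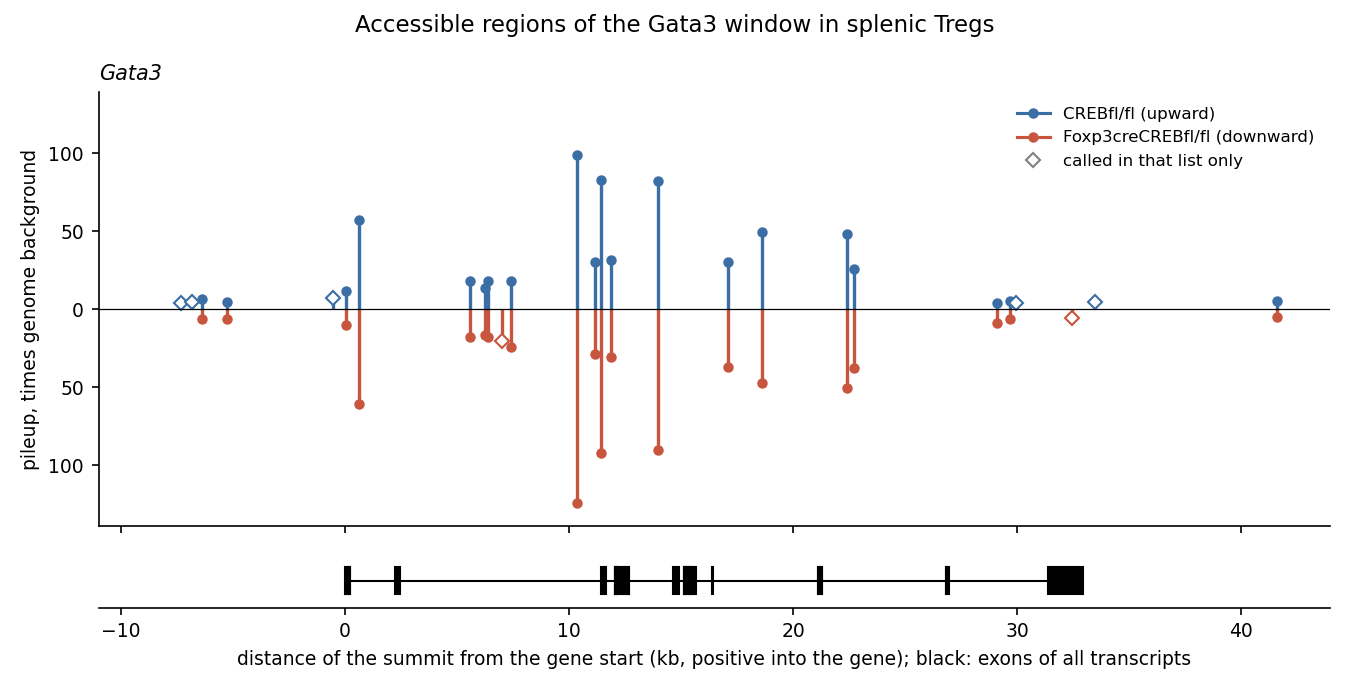
Levels of the *Gata3* regions as multiples of the genome background (vertical axis, *CREBfl/fl* upward and *Foxp3creCREBfl/fl* downward) against the distance of the summit from the gene start in kb (horizontal axis), with exons in black underneath. The tallest region, 10.4 kb into the gene, stood at 98.8 and 124, and open diamonds are the 5 regions called in *CREBfl/fl* only and the 2 called in *Foxp3creCREBfl/fl* only.

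The strongest open chromatin of *Gata3* lay around its near start, inside an intron of the longer transcripts. The region at chr2:9879226-9879939, 1077 bases upstream of that start, had pileups of 834 in *CREBfl/fl* and 632 in *Foxp3creCREBfl/fl*, levels of 98.8 and 124. Its ratio of 0.18 (0.03 to 0.33) was small, and 16.5% of regions of like strength lay as far from 0. With the local background in place of that of the genome its interval included 0. The region that covers the near start, chr2:9878322-9878737, had pileups of 696 and 471, levels of 82.4 and 92.6, for a ratio of 0.02 (-0.15 to 0.19). The flanking regions chr2:9878817-9878972 (252 and 148) and chr2:9877995-9878232 (263 and 155) had ratios of -0.19 (-0.49 to 0.11) and -0.18 (-0.48 to 0.11). The region 13.9 kb into the gene, chr2:9875855-9876273, was as strong as the start itself, with pileups of 693 and 461, with a ratio of -0.01 (-0.18 to 0.17). In its letters stands the only word with the STAT6 spacing among the 27 regions of *Gata3*. Both groups thus had the same order of levels at the 3 strongest regions, and only the first of the 3 intervals left 0.
The 101 bases around the summit of the strongest region, chr2:9879627-9879727 on the reverse strand, held none of the words, and its half-sites and AP-1 word stand further out in the region.
Gata3, 10.4 kb into the gene: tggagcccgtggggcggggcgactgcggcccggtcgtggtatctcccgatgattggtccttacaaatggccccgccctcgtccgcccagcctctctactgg

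At the far start the chromatin was less open. The region that holds it, chr2:9889930-9890043, had its summit in the UTR of exon 1 and pileups of 97 and 53, levels of 11.5 and 10.4. The ratio was -0.29 (-0.80 to 0.21), the lowest of the *Gata3* window, with an interval that included 0. A stronger region lay 0.61 kb further in, at chr2:9889037-9889750, where an exon of 9230102O04Rik starts. It had pileups of 481 and 311, levels of 57.0 and 61.1, for a ratio of -0.05 (-0.26 to 0.16). Between the 2 starts, 5.56 to 7.39 kb into the gene, 4 shared regions had levels from 13.4 to 24.4 and ratios from -0.18 to 0.27, and each interval included 0.

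The introns toward the end of *Gata3* held the regions with the highest ratios. The region at chr2:9860840-9861046, 29.1 kb into the gene, had pileups of 33 in *CREBfl/fl* and 46 in *Foxp3creCREBfl/fl*, levels of 3.91 and 9.04. Its ratio of 1.06 (0.38 to 1.75) was the highest of all 48, and 0.829% of shared regions of like strength lay as far from 0. It was weak in both lists and failed the threshold of 5 counting SDs. Its local background differed in the same direction, by 0.28, and with the local in place of the genome background the ratio was 0.77 (0.09 to 1.46). The region at chr2:9867157-9867410, 22.7 kb into the gene, had pileups of 218 and 193, levels of 25.8 and 37.9, for a ratio of 0.40 (0.12 to 0.69), and 7.90% of like regions lay as far. Its stronger neighbour chr2:9867454-9867885 had pileups of 405 and 259, with a ratio of -0.06 (-0.30 to 0.16), an interval that included 0. Next to the first region, chr2:9860273-9860520 had pileups of 43 and 33, with a ratio of 0.20 (-0.50 to 0.89), and held 4 GATA words, the most of any region of the 4 genes. Other intronic regions, at 17.1 and 18.6 kb, had ratios of 0.15 (-0.13 to 0.43) and -0.21 (-0.44 to 0.02). With the local background the second of these, chr2:9871144-9871551, had an interval below 0, at -0.29 (-0.53 to -0.06).
The summits of the 2 regions above 0 are printed on the reverse strand, because an AP-1 word stands in the first, chr2:9860880-9860980, and none of the words stands in the second, chr2:9867267-9867367.
Gata3, 29.1 kb into the gene: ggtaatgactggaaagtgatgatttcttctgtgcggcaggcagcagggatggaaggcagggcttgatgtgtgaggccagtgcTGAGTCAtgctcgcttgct
Gata3, 22.7 kb into the gene: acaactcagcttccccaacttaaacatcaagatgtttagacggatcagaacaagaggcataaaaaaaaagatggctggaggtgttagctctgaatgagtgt

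Regions of *Gata3* called in 1 list only were mostly weak. Of the 5 found in *CREBfl/fl* only, 4 had pileups of 32 to 37, levels of 3.79 to 4.38. They lay at chr2:9897317-9897431, chr2:9896784-9896933 and chr2:9856414-9856640 outside the gene and at chr2:9860042-9860166 in an intron. The fifth, at chr2:9890508-9890591, 0.53 kb upstream of the far start, had a pileup of 62 and a level of 7.34. A missing call is not a missing signal: behind the nearest *Foxp3creCREBfl/fl* peak the local background was 19.3, at which a pileup of up to 34, a level of 6.68, would have gone uncalled. At the other 4, levels of up to 3.54 to 4.13 would have gone uncalled. These limits use the pileup alone and were added after the lists had been seen.
Of the 2 regions found in *Foxp3creCREBfl/fl* only, chr2:9882977-9883062 was the stronger, with a pileup of 103 and a level of 20.2. Its summit lay 7.0 kb into *Gata3*, in a coding exon of 4930412O13Rik. In *CREBfl/fl* the local background at the nearest peak was 84.6, so a pileup of up to 116, a level of 13.7, would have gone uncalled, and the ratio would then be at least 0.41. The other, chr2:9857547-9857630 in the last exon of *Gata3*, had a pileup of 30 and a level of 5.90, and the same limit was a level of 2.96. No word was found in either.

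*Il4ra* was open in the same places in both groups. The gene sits on chromosome 7, forward strand, from 125552120 to 125579474 (ENSMUSG00000030748.9), and all 14 of its regions were shared. The share called in 1 list only was 0.0% in each list (Wilson interval 0.0 to 21.5). That interval included the shares of the whole lists, 16.4% in *CREBfl/fl* and 6.61% in *Foxp3creCREBfl/fl*. The lack of such regions therefore does not set *Il4ra* apart. Of the 14 shared regions 11 had ratios below 0 and 3 above, with a median of -0.09 and a range from -0.44 to 0.15. Without the subtraction it was 6 and 8, with a median of 0.055. Among 11477 protein-coding genes with at least 3 shared regions, 18.7% had a median as low or lower. The local background was also lower in *Foxp3creCREBfl/fl*, by 0.13 in the median of the 11 regions that had one.
The start region of *Il4ra*, chr7:125551542-125552434, with its summit in the UTR of exon 1, had pileups of 781 and 526, levels of 92.5 and 103. Its ratio was 0.01 (-0.15 to 0.17). In the first intron 6 regions followed within 9.4 kb of the start, with levels from 14.2 to 57.9 in *CREBfl/fl* and from 14.5 to 55.6 in *Foxp3creCREBfl/fl*. The strongest of them, chr7:125561170-125561742, had pileups of 489 and 283, with a ratio of -0.21 (-0.42 to 0.01). Its summit sequence is shown because a CRE half-site and a word with the STAT5 spacing stand 10 bases apart in it (chr7:125561445-125561545, forward strand).
Il4ra, 9.4 kb into the gene: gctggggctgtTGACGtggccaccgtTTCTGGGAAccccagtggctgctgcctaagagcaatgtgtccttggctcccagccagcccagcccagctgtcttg
The coding sequence held 1 region, in exon 11, with pileups of 72 and 42, with a ratio of -0.20 (-0.78 to 0.37). The 3 regions upstream of the gene were weak, with pileups of 33 to 63 in *CREBfl/fl* and 21 to 31 in *Foxp3creCREBfl/fl*.

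The strongest region of the *Il4ra* window was the one with an interval below 0. It lay between genes at chr7:125588556-125589180, 36.7 kb from the *Il4ra* start and 14.6 kb from the nearest start of *Il21r*, the gene of the interleukin-21 receptor. Pileups were 959 and 539, levels 114 and 106, and the ratio -0.25 (-0.41 to -0.10). Of the regions of like strength 7.27% lay as far from 0. Its local background was lower by 0.20, and with that in place of the genome background, or without the subtraction of the median, the interval included 0. The regions on the way to it, at 27.9 and 29.5 kb, had ratios of -0.03 (-0.31 to 0.25) and -0.05 (-0.25 to 0.15). The summit sequence (chr7:125588788-125588888, forward strand) held none of the words, while the whole region held 2 RUNX words.
Il4ra, 36.7 kb from the start: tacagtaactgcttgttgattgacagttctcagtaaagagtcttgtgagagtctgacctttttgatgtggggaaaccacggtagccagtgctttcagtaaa

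**Figure D3:**
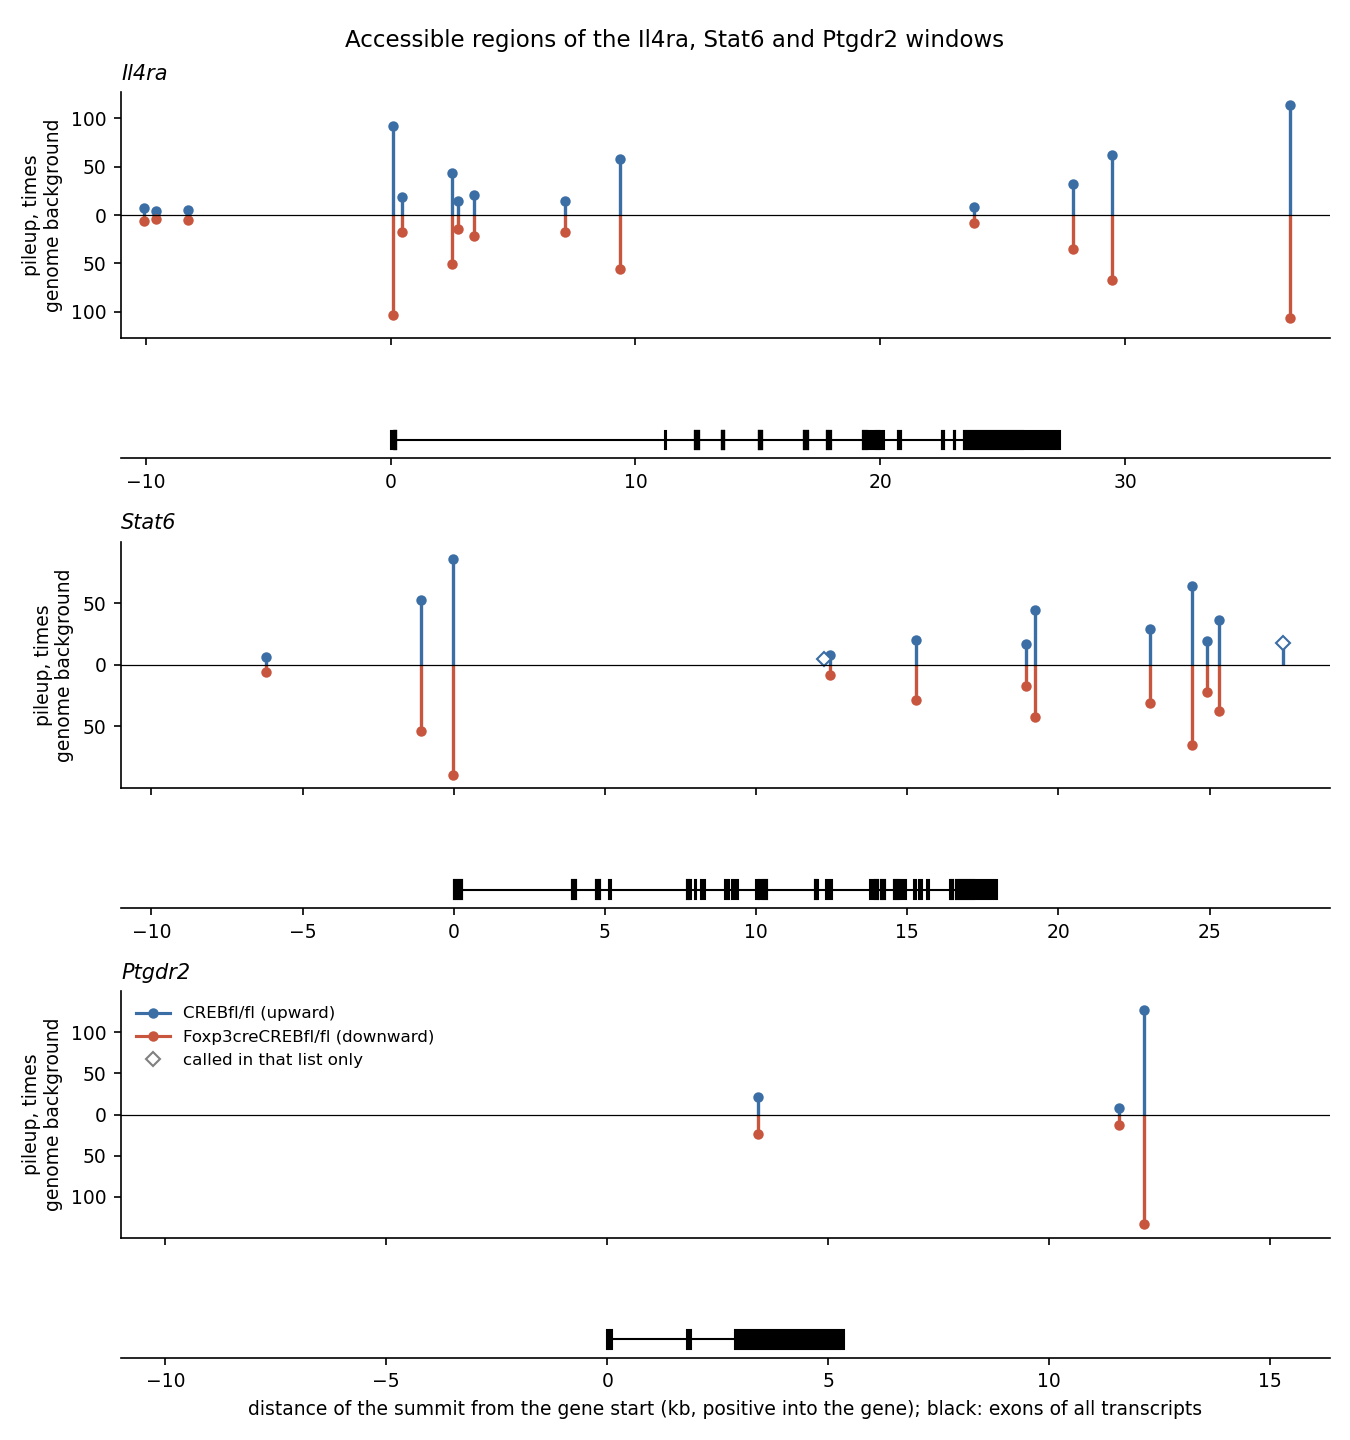
Levels of the regions at *Il4ra*, *Stat6* and *Ptgdr2* as multiples of the genome background (vertical axes, *CREBfl/fl* upward and *Foxp3creCREBfl/fl* downward) against the distance of the summit from each gene start in kb (horizontal axes), with exons in black. The start regions of *Il4ra* (92.5 and 103) and *Stat6* (86.1 and 89.0) were open in both groups, and no region was called at the start of *Ptgdr2*.

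*Stat6* had 13 regions in *CREBfl/fl* and 11 in *Foxp3creCREBfl/fl*, and 11 were shared. The 2 called in *CREBfl/fl* only were 15.4% of the 13, against 16.4% of the whole list. The gene sits on chromosome 10, forward strand, from 127642986 to 127660957 (ENSMUSG00000002147.18). Of the shared regions 9 had ratios below 0 and 2 above, with a median of -0.12. Without the subtraction it was 2 and 9, with a median of 0.034. Of the 11477 protein-coding genes with at least 3 shared regions 15.0% had a median as low or lower. The start region, chr10:127642334-127644201, was the strongest, with pileups of 727 and 453, levels of 86.1 and 89.0, for a ratio of -0.10 (-0.27 to 0.07). It holds 5 CRE half-sites, the most of any region of the 4 genes, 1 of them in the promoter sequence printed above. Beside it, 1.07 kb upstream, chr10:127641818-127642267 had pileups of 445 and 273, with a ratio of -0.12 (-0.35 to 0.10).
A weak region upstream of *Stat6*, chr10:127636729-127636833 beside the start of Gm48815, had pileups of 53 and 28, with a ratio of -0.34 (-1.06 to 0.35).
Inside *Stat6*, the intronic region chr10:127658166-127658392 was the one of this gene with an interval above 0. It had pileups of 169 and 144, levels of 20.01 and 28.3, for a ratio of 0.35 (0.02 to 0.68), and 16.0% of like regions lay as far from 0. Its summit sequence (chr10:127658237-127658337, forward strand) has a GATA word near its edge.
Stat6, 15.3 kb into the gene: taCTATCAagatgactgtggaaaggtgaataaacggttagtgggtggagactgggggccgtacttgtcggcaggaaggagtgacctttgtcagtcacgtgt
In coding exon 13, chr10:127655313-127655480 had pileups of 67 and 41, with a ratio of -0.13 (-0.73 to 0.45). Its neighbour chr10:127655164-127655260, called in *CREBfl/fl* only, had a pileup of 38 and a level of 4.50. Downstream, 6 shared regions lay in introns of *Nab2*, which encodes a corepressor of EGR transcription factors, 4 of them at the starts of *Nab2* and of *Nemp1*, the gene of a nuclear envelope protein. Their ratios ran from -0.22 to 0.04, and all intervals included 0. The second region called in *CREBfl/fl* only, chr10:127670317-127670468, lay in an intron of *Nemp1* and was the strongest such region of the 4 genes, with a pileup of 152 and a level of 18.0. The local background of the nearest *Foxp3creCREBfl/fl* peak was 43.3, so a level of up to 12.8 would have gone uncalled there, and the ratio would then be at most -0.64.

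*Ptgdr2* had no called region at its start in either list. The gene sits on chromosome 19, forward strand, from 10937160 to 10942511 (ENSMUSG00000034117.3), and its 3 regions were all shared. The nearest to its start, chr19:10940317-10940898, lay 3.42 kb in, in coding exon 3, with pileups of 178 and 120, levels of 21.1 and 23.6, for a ratio of 0.01 (-0.33 to 0.35). The other 2 belong to the neighbouring *Ccdc86*, a gene of a nucleolar protein. The region at its start, chr19:10949071-10949492, had pileups of 1077 and 680, levels of 128 and 134, for a ratio of -0.08 (-0.22 to 0.06). That in its first coding exon, chr19:10948677-10948824, had pileups of 71 and 62, with a ratio of 0.39 (-0.13 to 0.90). The *Ccdc86* start region held the only full CRE of the 57 regions, 24 bases from the summit, and it is shown in capitals with the 11 bases on either side (chr19:10949271-10949300, forward strand).
CRE at the Ccdc86 start: gcgccttcataTGACGTCAgactcgtccat
This *Ccdc86* start region was the strongest of the 57 regions. Whether CREB binds this CRE was not tested. The region inside *Ptgdr2* held none of the words.

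Over all 57 regions the full CRE, found once, was the only word with a share above that in regions of like length. It was in 1 region (1.75%, against 0.952%) and the half-site in 9 (15.8%, against 17.0%), 1 at *Gata3*, 3 at *Il4ra*, 4 at *Stat6* and 1 at *Ptgdr2*. GATA words were in 15 regions (26.3%, against 35.5%), AP-1 words in 4 (7.02%, against 10.7%), the STAT6 spacing in 3 (5.26%, against 7.65%), the STAT5 spacing in 4 (7.02%, against 9.77%) and the forkhead word in 2 (3.51%, against 4.68%). The RUNX word was in 7 (12.3%, against 28.2%), 5 at *Il4ra*, 2 at *Stat6* and 0 at *Gata3*. Half-sites are part of full CREs, so these counts overlap. Of the 5 regions whose interval left 0, that of *Gata3* upstream of the near start held half-sites and the other 4 held none.

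The genes around the 4 in the type 2 pathway were described from fixed lists with the same windows, in which windows of neighbouring genes can share regions. Their interval counts stand beside 7.88% of all shared regions below and 5.47% above 0. Their counts of regions called in 1 list only stand beside 16.4% of the *CREBfl/fl* and 6.61% of the *Foxp3creCREBfl/fl* list. Without the subtraction the medians of the 5 lists were 0.10, 0.08, 0.11, 0.14 and 0.15 in the order given here, so the sign of the first 4 rests on it. For the Th2 cytokines *Il4*, *Il5*, *Il13*, *Il9* and *Areg*, 13 shared regions had a median ratio of -0.05, with 3 intervals below and 1 above 0. Among those with at least 3 shared regions *Il9*, a growth factor for mast cells, had the lowest median, -0.35. Of its 5 *CREBfl/fl* regions 2 (40.0%) had no counterpart. *Il4* and *Il13*, whose windows overlap, both had a median of 0.13. The region nearest the start of *Il4* had pileups of 112 and 105, with a ratio of 0.49 (0.09 to 0.88), and the start of *Il13* lay in a region of the *Foxp3creCREBfl/fl* list only with a pileup of 19. Near the start of *Il5*, the eosinophil growth factor, pileups were 94 and 29 and the ratio -1.12 (-1.77 to -0.50), and at *Areg*, the gene of the tissue repair factor amphiregulin, 356 and 169 and -0.49 (-0.77 to -0.23). The *Il5* and *Areg* values and that at the *Il4* start were chosen after they had been seen.
In IL-4 and IL-13 receptor signaling, 90 shared regions of 9 genes had a median of -0.07, with 11 intervals below (12.2%) and 1 above 0 (1.11%), and without the subtraction 3 below and 15 above. *Irs2*, the adaptor that carries the signal to PI3 kinase, had the lowest median, -0.33, and 5 of its 8 intervals lay below 0. *Jak2* and *Il13ra1* had the highest, both 0.13. Among regions called in 1 list, *Jak1*, the kinase bound to the IL-4 receptor alpha chain, had 9 of 45 in *CREBfl/fl* (against 16.4% of the whole list) and 3 of 41 in *Foxp3creCREBfl/fl* (7.32%, against 6.61%). *Socs1*, a feedback inhibitor, had 5 of 10 and 1 of 6.
For 18 Th2 transcription factors and partners, 257 shared regions had a median of -0.04, with 28 intervals below (10.9%) and 10 above 0 (3.89%), and without the subtraction 11 below and 42 above. The lowest medians were those of *Gfi1* (-0.28, 3 of 6 intervals below 0), *Satb1* (-0.25, 2 of 21) and *Stat5b* (-0.23, 7 of 17). *Satb1*, a chromatin organizer, had 9 of its 33 *CREBfl/fl* regions (27.3%) in that list only, and *Ikzf1*, the gene of Ikaros, 6 of 44 (13.6%), with 5 of its 45 *Foxp3creCREBfl/fl* regions (11.1%) in that list only. At the start of *Runx3*, chosen after its value had been seen, pileups were 880 and 326 and the ratio -0.85 (-1.04 to -0.67). For 6 Th2 surface receptors the median of 40 regions was -0.01, with 4 intervals on each side. *Ccr3*, the eotaxin receptor, had 0.30 and *Crlf2*, a chain of the TSLP receptor, 0.20, while *Il17rb*, the IL-25 receptor, had -0.17. *Ccr3* also had 1 of 5 regions in *CREBfl/fl* only and 3 of 7 in *Foxp3creCREBfl/fl* only. For prostaglandin D2, the ligand of the *Ptgdr2* product, 3 of 5 genes had regions, *Ptgds* and *Hpgds*, the synthases, had medians of 0.00, *Ptgs1* had 1 region in *CREBfl/fl* only, and *Ptgs2* and *Ptgdr* had none in either list. Of the 7 shared regions of this list 1 had an interval below 0, that at the start of *Hpgds*, where the pileup was 847 against 487 and the ratio -0.22 (-0.38 to -0.06). No region of these 5 lists passed the threshold of 2-fold and 5 counting SDs.

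**Figure D4:**
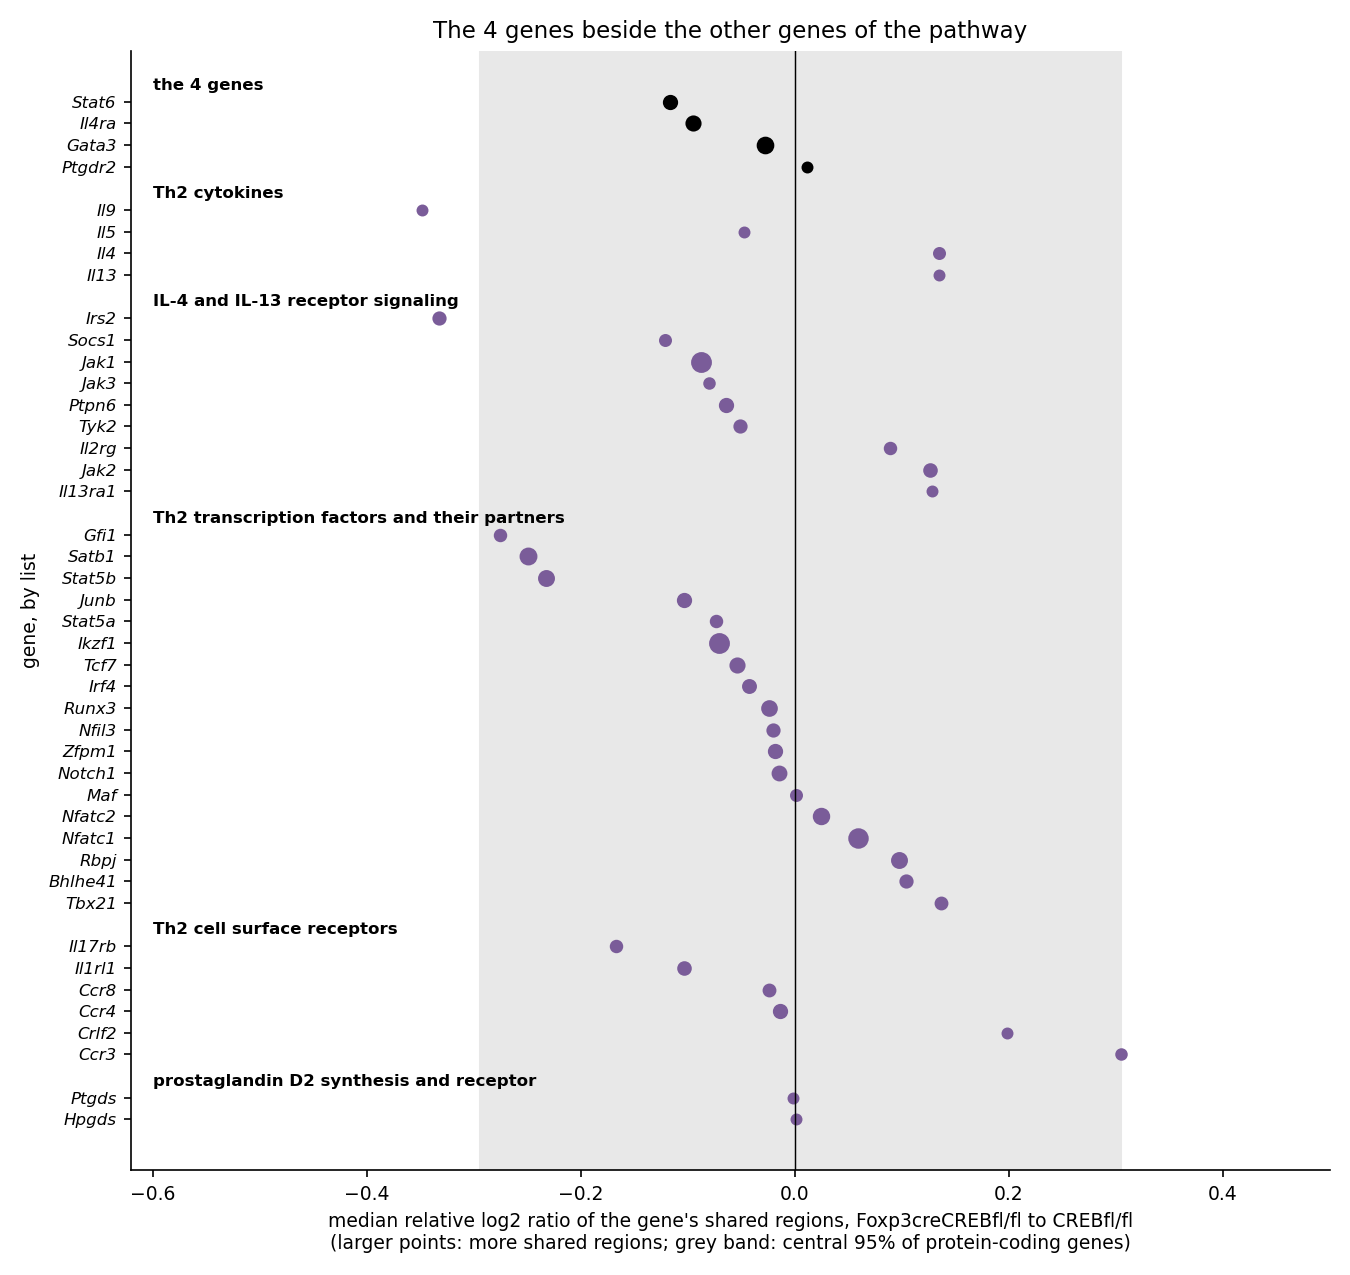
Median relative log2 ratio of the shared regions of each gene (horizontal axis) for the 4 genes, in black, and the genes of the 5 pathway lists (vertical axis), each with at least 3 shared regions; point size grows with their number. The grey band is the central 95% of 11477 protein-coding genes, from -0.29 to 0.30; *Il9* (-0.35) and *Irs2* (-0.33) lay below it, and all 4 genes lay inside it.

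Beside all protein-coding genes the medians of the 4 genes were ordinary. The central 95% of 11477 genes ran from -0.29 to 0.30. *Stat6* (-0.12), *Il4ra* (-0.09), *Gata3* (-0.03) and *Ptgdr2* (0.01) lay within it, in that order from low to high.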

How the data were processed

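ATAC-seq peak lists of splenic Tregs were used, 1 per group. According to the labels and the methods, the authors used Trim Galore for trimming of the paired 75 bp reads, Bowtie2 for alignment, SAMtools for filtering and MACS2 for peak calling. Their versions and the way in which the libraries of a group were joined are not stated there. Per peak, the deposited columns used hold a score that follows the q value, the authors' ratio (fold) of pileup to background at the summit, their p and q values as -log10, and the summit position. Calling was described as free of a local background, but 32.7% of *CREBfl/fl* and 29.8% of *Foxp3creCREBfl/fl* peaks were at the genome background and the rest above it. The labels name mm9; positions were read as GRCm38, in which 53.2% and 52.6% of 93472 protein-coding transcript starts (GENCODE vM21) had a peak within 1 kb, against 14.7% and 13.8% after a shift of 100 kb.

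Pileup and background were solved from fold and p (tolerance 0.002 on -log10 p) for 99.94% and 99.97% of peaks, with Python 3.11.15, NumPy 2.4.6, pandas 2.3.3 and SciPy 1.17.1, after a check on simulated peaks. Regions overlapping by 1 bp were merged and the highest pileup taken. The spread of ratios was read in 20 bins of strength, which define regions of like strength. Members, gene lists and words were chosen with earlier results of these data known. Named were the 4 genes, the genes their regions lie in or start beside, up to 3 genes per pathway list with the median farthest from 0 among those with at least 3 shared regions and up to 2 with the most group-only regions, and, of regions, those called in 1 list, those whose interval left 0 and the strongest of each gene. With 1 list per group no test was made.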

Additional observations from a re-analysis of the deposited data

How the results depend on the processing

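Of 61 values recomputed with another choice of processing, 47 stayed close to the reported value and 14 moved. A count that stayed can rest on other regions. With only peaks of -log10 q of at least 10, the counts called in 1 list stayed at 7 and 2. Of the regions reported as such, only chr10:127670317-127670468 in the *Stat6* window, with a -log10 q of 12.8, passed. The remaining regions in these counts were shared ones whose peak in the other list fell below the limit. Regions called in *CREBfl/fl* only numbered 2 in the gene bodies alone and 14 with 50 kb on each side, and regions called in *Foxp3creCREBfl/fl* only numbered 8 with 50 kb. Shared regions with an interval below 0 numbered 0 in the gene bodies, 2 with 50 kb, 0 without the shift to the median and 2 with summed pileups; those above 0 numbered 7 without the shift. Without the shift the medians were 0.12 for *Gata3*, 0.055 for *Il4ra*, 0.034 for *Stat6* and 0.16 for *Ptgdr2*, so the sign of the first 3 rests on it. With the background behind each peak in place of that of the genome, the medians were 0.043 for *Il4ra* and 0.21 for *Ptgdr2*, and the region with an interval below 0 was that of *Gata3* at 18.6 kb in place of that of *Il4ra* at 36.7 kb. The 3 start regions moved by less than their intervals. *Ptgdr2* has no start region and gave no such value. No paired analysis was possible because each group has 1 pooled list, and for the same reason no replicate could be left out. Depth limits weak regions most: at the genome background the lowest pileups called were 19 in *CREBfl/fl* and 14 in *Foxp3creCREBfl/fl*.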
